A study of Mus musculus with 40 samples.

Results

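The 9 autosomal imprinted genes Peg3, Kcnq1ot1, Snrpn, Mest, Igf2, H19, Dlk1, Meg3 and Grb10 were examined for peaks of H3K4me3 and H3K27me3 at their promoters, out of 55536 genes annotated in GENCODE M21 on mouse build GRCm38 (mm10). They were chosen by name as well-studied imprinted genes, with no threshold on signal. A promoter here spanned 2000 bp before and 1000 bp after an annotated transcript start, and overlapping promoters of a gene were merged. The peaks came from chromatin immunoprecipitation and sequencing (ChIP-seq) of oligodendrocyte precursor cells (OPCs), the proliferating glial cells that give rise to myelinating oligodendrocytes. OPCs were immunopanned with an antibody to PDGFRa from brainstem or dorsal telencephalon, the latter labelled cortex, of mouse pups of postnatal day 5 to 7, pooled by region and genotype, and were grown in proliferation medium without differentiation. The K27M cultures carried the histone mutation H3.3 K27M, expressed from the endogenous H3-3a locus after removal of a stop cassette by Cre under the human GFAP promoter, which acts in neural stem and progenitor cells, and the Control cultures came from littermates. Each mark was mapped in 10 cultures, with 2 per genotype from brainstem (numbers 59 and 61) and 3 per genotype from telencephalon (numbers 59, 60 and 61), so that a K27M and a Control culture of 1 region and 1 number formed each of 5 matched pairs.

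Genomic imprinting is the expression of a gene from only the maternal or only the paternal copy, and it is set by DNA methylation that the egg or the sperm placed on control regions. H3K4me3 marks active or poised promoters and is kept off methylated CpG islands, while H3K27me3 is written by Polycomb repressive complex PRC2, the enzyme that H3.3 K27M inhibits. A promoter with both marks is called bivalent where they sit on the same nucleosomes, but at an imprinted gene each mark may lie on a different parental copy. ChIP-seq peaks of inbred mice do not tell the copies apart, so co-occurrence below refers to position only.

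Of the 20 libraries analysed, the H3K4me3 libraries held 20961 to 31200 peaks. The H3K27me3 libraries of Control cultures held 12715 to 64808 peaks over 26.5 to 152 Mb, and those of K27M cultures 4739 to 15753 peaks over 13.3 to 41.4 Mb. The telencephalon cultures numbered 59 stood apart, with a median H3K4me3 fold enrichment over input of 3.57 in Control and 4.98 in K27M against 6.55 to 13.8 in the other 8 cultures, and with the fewest H3K27me3 peaks of each genotype. All 5 OPC markers examined (Pdgfra, Cspg4, Olig1, Olig2, Sox10) carried promoter H3K4me3 and none carried H3K27me3 in any Control culture. H3K4me3 was also present in all 5 Control cultures at 3 of 3 neuronal markers and 1 of 3 astrocyte markers (Gja1), and at none of the 3 mature oligodendrocyte, 3 microglial or 3 endothelial markers in all 5. H3K27me3 was called in at least 1 Control culture at 3 of 3 neuronal, 2 of 3 astrocyte and 3 of 3 microglial markers. It was called at 1 of 3 mature oligodendrocyte and 1 of 3 endothelial markers. The neuronal marker Rbfox3 and Gja1 carried it in every Control culture. The part of other cell types in the values below was not tested, and a mark in few cells cannot be told apart from a weak mark in many.

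Sequences that the imprinting machinery is known to read lay inside the H3K4me3 peaks of several of the genes. ZFP57, a zinc finger protein that maintains imprints, binds methylated TGCCGC, and CTCF, an insulator protein, binds the unmethylated copy of the H19 control region through sites with the core CGNGGNGGC. Both motifs were searched on both strands. In 1000-bp windows centred on the stretch that H3K4me3 peaks of all 10 cultures shared, Snrpn held 4 TGCCGC matches, Grb10 4, Kcnq1ot1 3, H19 3, Mest 1, and Peg3 and Meg3 0. Of 11970 such windows at all genes, 45.5% held at least 1 match, 5.10% held as many as Kcnq1ot1 and H19, and 1.78% held as many as Snrpn and Grb10. A 150-base stretch with several matches is printed below for Snrpn (chr7:60004292-60004441, minus strand, 670 to 819 bp downstream of the marked start, in an intron) and Kcnq1ot1 (chr7:143295612-143295761, minus strand, 788 to 937 bp downstream of the start, in the exon of this non-coding RNA and inside the gene Kcnq1), because these sequences lay under H3K4me3 in every culture and under H3K27me3 in none. Capitals mark TGCCGC or, on the other strand, GCGGCA.
Snrpn: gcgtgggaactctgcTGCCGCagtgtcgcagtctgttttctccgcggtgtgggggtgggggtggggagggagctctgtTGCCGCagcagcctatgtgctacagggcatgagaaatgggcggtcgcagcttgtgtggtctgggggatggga
Kcnq1ot1: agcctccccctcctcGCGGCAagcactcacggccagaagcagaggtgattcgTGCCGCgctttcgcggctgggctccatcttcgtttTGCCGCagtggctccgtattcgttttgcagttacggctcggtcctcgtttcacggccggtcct

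Upstream of H19, between 1500 and 4500 bp before its start (chr7:142579643-142582643, in no annotated gene), CGNGGNGGC matched 3 times. Of 55377 windows of the same length and position upstream of all genes, 12.2% held at least 1 match and 0.38% held 3 or more. The 3 stretches are printed with the motif in capitals, because H3K4me3 in this locus lay over their motifs more often than over the H19 start. Stretch 1 was at chr7:142582014-142582066 with its motif 3901 bp upstream of the start, stretch 2 at chr7:142580744-142580796 with the motif 2631 bp upstream, and stretch 3 at chr7:142580289-142580341 with the motif 2176 bp upstream. The motifs of stretches 1 and 3 overlapped a TGCCGC match, and that of stretch 2 did not.
H19 stretch 1: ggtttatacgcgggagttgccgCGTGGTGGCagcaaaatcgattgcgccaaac
H19 stretch 2: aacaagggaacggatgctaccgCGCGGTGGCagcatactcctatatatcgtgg
H19 stretch 3: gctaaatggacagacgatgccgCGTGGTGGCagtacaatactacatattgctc

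Grb10 has 2 marked promoters, and the upstream one stood out by its base composition. The 300-base RefSeq promoter there held 45 CpG dinucleotides at 80.0% GC, and 1.93% of all RefSeq promoters held as many. Its 269 bases before the transcript start (chr11:12037402-12037670, minus strand) are printed because H3K27me3 covered them in every culture. The 300-base promoter held 1 TGCCGC match, which was not within the printed bases, and 11.6% of all 32817 RefSeq promoters of that length held 1 or more.
Grb10 upstream promoter: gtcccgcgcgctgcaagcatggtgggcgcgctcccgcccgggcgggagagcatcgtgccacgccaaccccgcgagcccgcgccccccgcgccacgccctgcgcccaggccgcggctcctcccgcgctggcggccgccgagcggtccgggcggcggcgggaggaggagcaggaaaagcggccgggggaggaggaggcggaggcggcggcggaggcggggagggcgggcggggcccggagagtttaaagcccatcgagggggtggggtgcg

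The 9 genes fell into the same states in both regions and both genotypes. Igf2, Dlk1 and Grb10 carried both marks, while Peg3, Kcnq1ot1, Snrpn, Mest, H19 and Meg3 carried H3K4me3 only. These states rest on consensus peaks, which were kept where at least 2 cultures of a region and genotype held overlapping peaks whose combined evidence passed the stringent p of 1e-10 for H3K4me3 or 1e-08 for H3K27me3. Both marks were thus found at 3 of 9 imprinted genes, against 4.59% of all genes in brainstem Control cultures and 7.3% in telencephalon Control cultures. These shares are not matched to the 9 genes, which all carried H3K4me3. Of the 55536 genes, only 20007 had an H3K4me3 promoter peak in any culture, and the consensus share among those was not counted. Igf2, Dlk1 and Grb10 each had 9 distinct promoters, any of which could give the call. In telencephalon, the calls at Igf2 and Dlk1 needed both culture 60 and culture 61, and Grb10 alone kept the call without either culture, or when each Control culture had to hold a peak. In brainstem, Igf2 lost the call without culture 59.

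**Figure D1:**
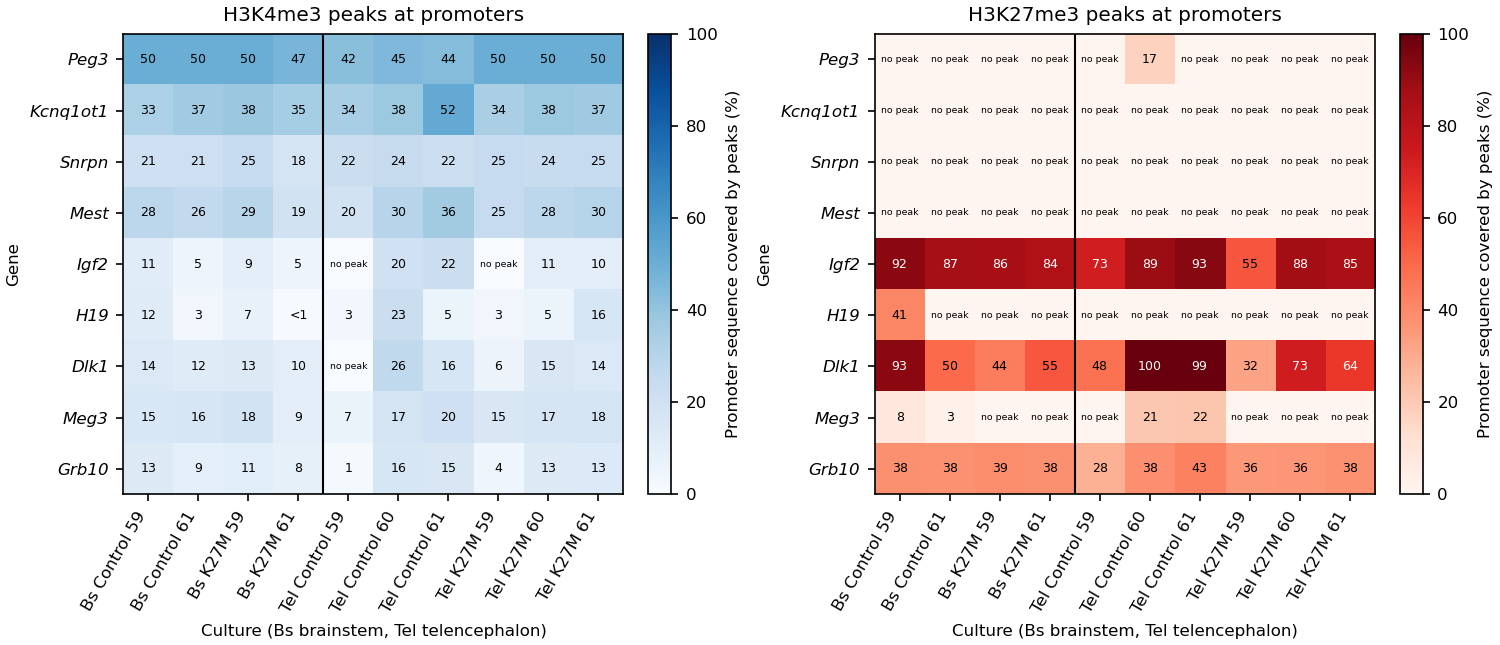
Percent of each gene's merged promoters covered by H3K4me3 peaks (left) and H3K27me3 peaks (right) in each of the 10 cultures, 1 cell per gene and culture. H3K27me3 filled a large share of the Igf2, Dlk1 and Grb10 promoters in every culture and was absent from Kcnq1ot1, Snrpn and Mest in every culture.

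Peg3, Kcnq1ot1, Snrpn and Mest are expressed from the paternal copy, and the maternal copy of their promoter regions is methylated. Peg3 encodes a zinc finger protein, Kcnq1ot1 a long antisense RNA that silences its neighbours, Snrpn a splicing protein, and Mest a hydrolase-like protein of mesoderm. All 4 had promoter H3K4me3 in 10 of 10 cultures, as had 28.7% of all genes. Kcnq1ot1, Snrpn and Mest had H3K27me3 in none of the 10 cultures, as had 67.2% of genes with H3K4me3 in all 10, so that neither count set them apart from active promoters in general. H3K4me3 covered 42.4% to 50.1% of the Peg3 promoters, 33.2% to 52.1% of the Kcnq1ot1 promoter, 17.8% to 25.0% of the Snrpn promoters and 19.4% to 36.0% of the Mest promoters. The Peg3 promoter is shared with Usp29, which is transcribed the other way, and that of Snrpn with Snurf, so that their peaks cannot be assigned to 1 gene.

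At Snrpn only 1 of 2 merged promoters was marked, the one at chr7:60004112-60007111, and its H3K4me3 peak was 2266 to 3162 bp long. Kcnq1ot1 peaks reached from the start into the transcript and were 2110 to 4383 bp long. Peg3 was the only gene of the 4 with promoter H3K27me3, in telencephalon Control culture 60 alone, where a peak of 363 bp and 2.36-fold enrichment and another of 863 bp and 2.26-fold together covered 17.05% of its promoters. No other culture held a peak there.

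Igf2, a growth factor expressed from the paternal copy, and H19, a long non-coding RNA expressed from the maternal copy, share enhancers and a control region that lies upstream of H19 and is methylated on the paternal copy. They differed in both marks. H3K27me3 covered 92.4% and 86.9% of the Igf2 promoters in the brainstem Control cultures 59 and 61, and 86.4% and 83.8% in the K27M cultures of those numbers. In telencephalon, coverage was 72.8%, 89.2% and 93.3% in Control cultures 59, 60 and 61, and 55.4%, 87.7% and 85.4% in the K27M cultures. Igf2 was therefore largely covered in every culture, lowest in telencephalon K27M culture 59. The longest H3K27me3 peak at Igf2 measured 12751 to 18775 bp in Control and 9413 to 15163 bp in K27M cultures, and it reached the upstream-most promoter (chr7:142665817-142668816) in 10 of 10 cultures, where no H3K4me3 was called.

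H3K4me3 at Igf2 lay inside the H3K27me3 peak over its full length in the 8 cultures that had it. The fold enrichment of its strongest peak was 6.04 and 3.13 in brainstem Control cultures, 5.09 and 3.17 in brainstem K27M cultures, 26.1 and 21.8 in telencephalon Control cultures 60 and 61, and 6.49 and 6.94 in telencephalon K27M cultures 60 and 61. No H3K4me3 peak was called at Igf2 in the telencephalon cultures numbered 59 of either genotype, the libraries of lowest H3K4me3 enrichment. The 2 telencephalon Control values were the highest at this gene, and those 2 libraries also had the highest median enrichment over all peaks, 13.8 and 10.1, whose part in the difference was not tested.

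H19 had H3K4me3 upstream of its start more often than at it. In the window printed above, H3K4me3 was called in 10 of 10 cultures with a fold enrichment of 3.34 to 10.7, and H3K27me3 in 0 of 10. Within 500 bp of the start, H3K4me3 was called in 3 of 10 cultures, namely brainstem Control 59, telencephalon Control 60 and telencephalon K27M 61, with 4.72-, 5.97- and 4.19-fold enrichment. The motifs of CTCF stretches 2 and 3 lay within H3K4me3 peaks in 10 of 10 cultures and that of stretch 1 in 7 of 10, while the whole printed stretches 1, 2 and 3 did so in 4, 8 and 10 cultures. The H3K4me3 call at the H19 promoter in every culture came in 7 cultures from the edge of this upstream peak alone. H3K27me3 reached the H19 promoter in brainstem Control culture 59 only, with a peak of 1890 bp and 2.37-fold enrichment that covered 41.0% of it.

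**Figure D2:**
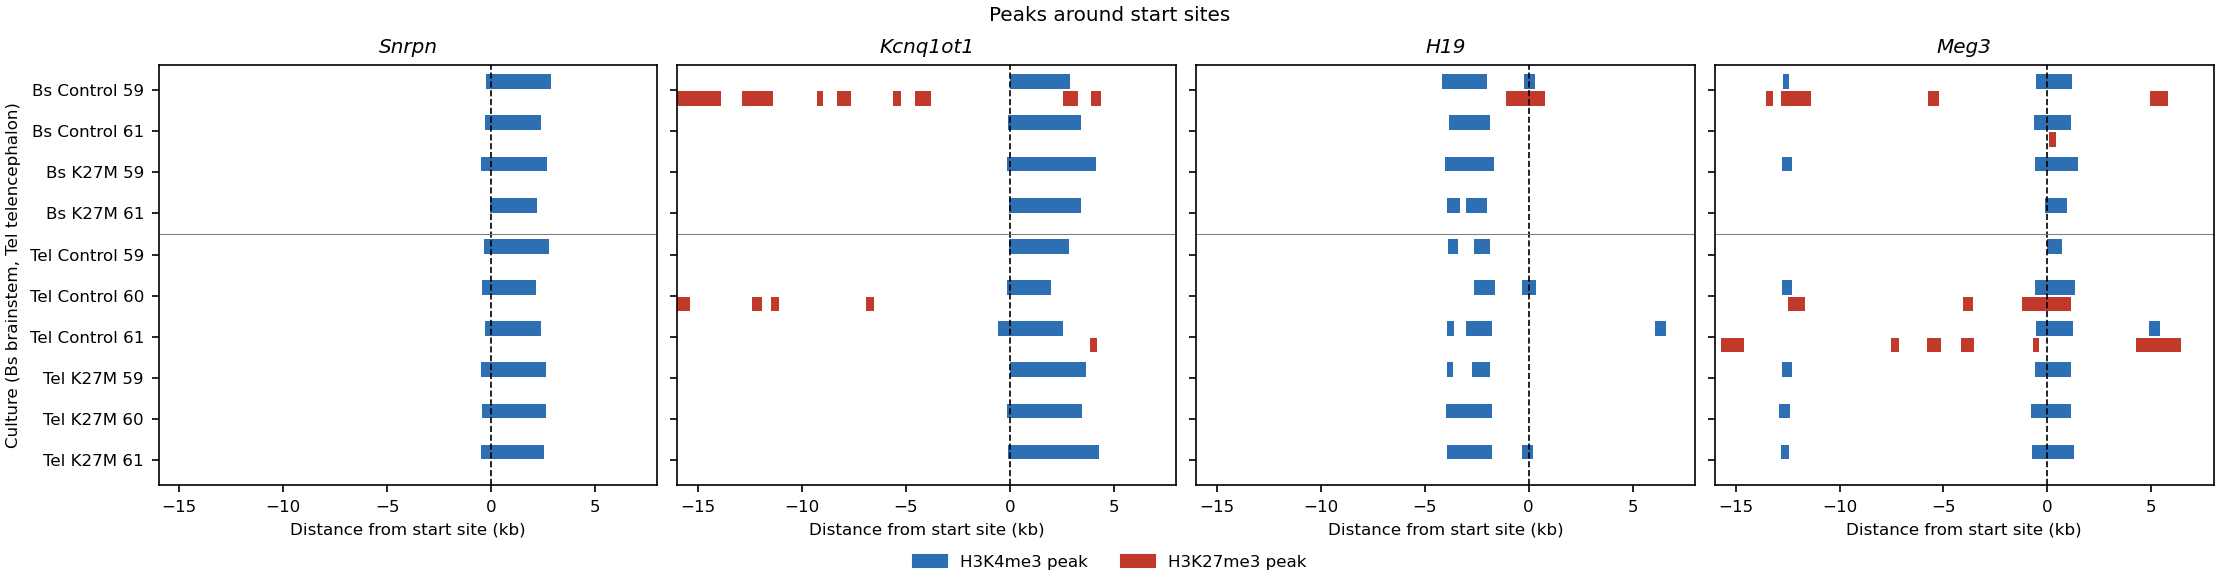
H3K4me3 peaks (blue) and H3K27me3 peaks (red) by distance from a start site in kb at Snrpn, Kcnq1ot1, H19 and Meg3, 1 line per culture, with negative distances upstream. At H19 the H3K4me3 peaks of all 10 cultures lay upstream of the start, and a peak at the start itself was seen in 3 cultures.

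Dlk1, a transmembrane ligand of the Delta-like family expressed from the paternal copy, and Meg3, a long non-coding RNA expressed from the maternal copy, share a control region between them that is methylated on the paternal copy. Dlk1 carried H3K27me3 in every culture. It covered 92.6% and 49.8% of the Dlk1 promoters in brainstem Control cultures 59 and 61, and 43.9% and 54.7% in the K27M cultures of those numbers. In telencephalon it covered 47.6%, 100% and 99.5% in Control cultures 59, 60 and 61, and 32.2%, 73.3% and 63.8% in the K27M cultures. Both groups overlapped, with 3 Control cultures above every K27M culture and the other 2 among them. The longest H3K27me3 peak measured 11541 and 4868 bp in brainstem Control cultures and 2892, 16762 and 16258 bp in telencephalon Control cultures, against 2375 to 5925 bp in K27M cultures.

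At the Dlk1 start, H3K4me3 was narrow and lay wholly within H3K27me3, with a peak of 425 to 1450 bp in the 9 cultures that had it and none in telencephalon Control culture 59. Its enrichment was 60.2-fold in telencephalon Control culture 60 and 28.1-fold in culture 61, 15.2- and 16.9-fold in the K27M cultures of those numbers, and 2.39- to 9.68-fold elsewhere. A separate H3K4me3 peak was called between 1500 and 4000 bp upstream of the first start in 8 of 10 cultures, wholly within H3K27me3 in 5 and partly in 3. Farther out, between 14486 and 15103 bp upstream, an H3K4me3 peak was called in 5 cultures and lay outside H3K27me3 in all 5.

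Meg3 carried H3K4me3 within 1000 bp of its first start in 10 of 10 cultures, with 3.13- to 20.0-fold enrichment. H3K27me3 was called at its promoters in 4 of 5 Control cultures and in 0 of 5 K27M cultures. It covered 7.63% and 2.64% in brainstem Control cultures 59 and 61, and 0%, 21.0% and 21.7% in telencephalon Control cultures 59, 60 and 61. These Control peaks were weak, with 2.12- to 3.41-fold enrichment, lay at different places along 11254 bp of merged promoters, and entered no consensus. Among genes with H3K27me3 in 1 to 4 of 5 Control cultures, 81.1% had no such peak in any K27M culture, so this pattern was common to most weakly covered genes. Between 11.5 and 14.5 kb upstream of Meg3, toward Dlk1, H3K4me3 was called in 2 of 5 Control and 4 of 5 K27M cultures with 2.80- to 4.54-fold enrichment. H3K27me3 was called in this window in 2 of 5 Control and 0 of 5 K27M cultures, with 2.19- to 2.58-fold enrichment. How often like windows at other genes gave such counts was not determined.

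**Figure D3:**
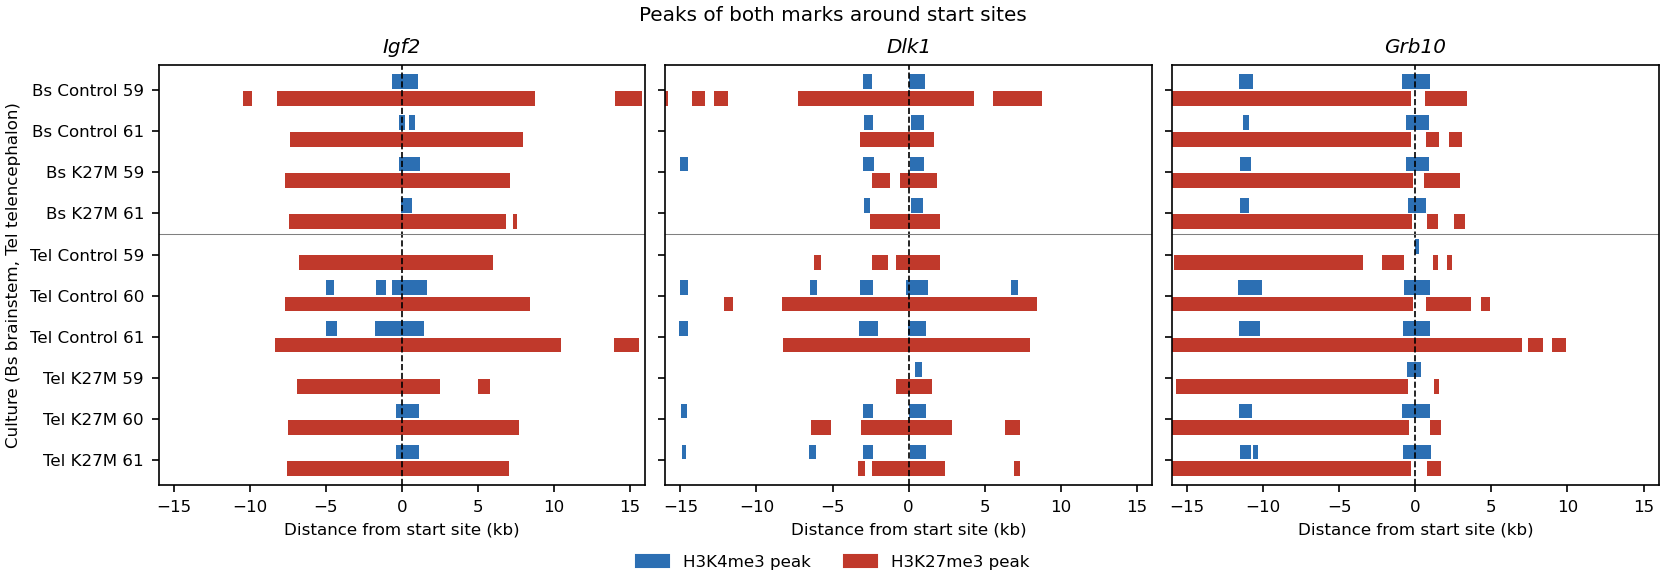
H3K4me3 peaks (blue) and H3K27me3 peaks (red) by distance from a start site in kb at Igf2, Dlk1 and Grb10, 1 line per culture, with negative distances upstream. The H3K4me3 peaks at the Igf2 and Dlk1 starts lay within H3K27me3 peaks, whereas at the downstream start of Grb10 (0 kb) the H3K27me3 signal was interrupted in 9 of 10 cultures.

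Grb10, a growth factor receptor adaptor, is expressed from the maternal copy in most tissues and from the paternal copy in neurons, where a downstream promoter is used. It was the only gene of the 9 with both marks in all 10 cultures. Of the 17030 genes with H3K4me3 in at least 8 of 10 cultures, as Igf2, Dlk1 and Grb10 had, 6.54% had H3K27me3 in all 10, as these 3 genes had. The upstream promoter (chr11:12036402-12040683) was covered by H3K27me3 over all 4282 bp in 10 of 10 cultures. H3K4me3 lay within it in 8 of 10 cultures and was not called in the telencephalon cultures numbered 59 of either genotype. The downstream promoter (chr11:12025325-12029971), whose marked start lies 12359 bp from the first upstream start, carried H3K4me3 in 10 of 10 cultures.

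At this downstream promoter of Grb10 the marks alternated rather than lay over each other. H3K27me3 left a gap at the middle of the H3K4me3 peak in 9 of 10 cultures, and the gap measured 768 to 1914 bp. The share of the H3K4me3 peak that H3K27me3 also covered was 46.9% and 36.2% in brainstem Control cultures, 48.8% and 23.9% in brainstem K27M cultures, and 6.09%, 26.0% and 41.9% in telencephalon K27M cultures. In telencephalon Control cultures 59, 60 and 61 it was 0%, 49.7% and 100%, so that culture 61 alone, the library with the most H3K27me3 peaks, had no gap. The other 4 merged promoters of Grb10 carried neither mark in any culture.

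K27M and Control cultures were then compared at each promoter by the percent of its length covered by peaks, in an exact two-sided permutation test that flips the sign of each of the 5 pair differences. Its smallest possible p is 0.0625, so no gene can pass 0.05, and the pair values carry the comparison. Replicates were separate cultures. H3K27me3 coverage was lower at most genes, with a lower mean in K27M at 93.8% of the 14153 genes with any promoter peak and a median difference of -9.01 percentage points. Among the 9 imprinted genes the mean was lower at 5 (Peg3, Igf2, H19, Dlk1, Meg3) and higher at 1 (Grb10), and 3 had no peak. The median was -7.70 points over the 6 with a peak and -3.41 over all 9. At Peg3 and H19 the difference came from 1 pair each, and without telencephalon pair 60 the median over the 9 was 0.

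Igf2, Dlk1 and Grb10 belong to the 1820 genes with promoter H3K27me3 in all 10 cultures, of which 64.9% had a lower mean in K27M. At Igf2, coverage was 86.9% ± 8.30 (SD, n = 5) in Control and 79.8% ± 13.7 in K27M cultures. The Igf2 difference was -7.18 points, lower in 5 of 5 pairs by 1.46 to 17.4 points, at an exact p of 0.0625 (0.497 after Benjamini-Hochberg adjustment over all genes). That smallest p was reached at 1505 of the 14153 genes with a promoter peak. At Dlk1, coverage was 77.9% ± 26.8 in Control and 53.6% ± 16.1 in K27M cultures. The Dlk1 difference of -24.3 points was in the direction of less H3K27me3 in 4 of 5 pairs, with an exact p of 0.125 (adjusted 0.497). Brainstem pair 61 went the other way at Dlk1 by 4.90 points.

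Grb10 differed by less than the spread between pairs, with 37.1% ± 5.23 in Control and 37.3% ± 1.43 in K27M cultures, a difference of 0.17 ± 4.55 points (SD over 5 pairs) and an exact p of 0.938. The upstream Grb10 promoter was wholly covered in every culture. Of its other promoters only the downstream one held H3K27me3, so the differences came from that promoter alone. At Meg3, coverage was 10.6% ± 10.2 in Control and 0% in K27M cultures, lower in 4 of 5 pairs, with an exact p of 0.125 (adjusted 0.497). None of the 9 genes passed the adjusted threshold, and neither did any of the genes tested.

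**Figure D4:**
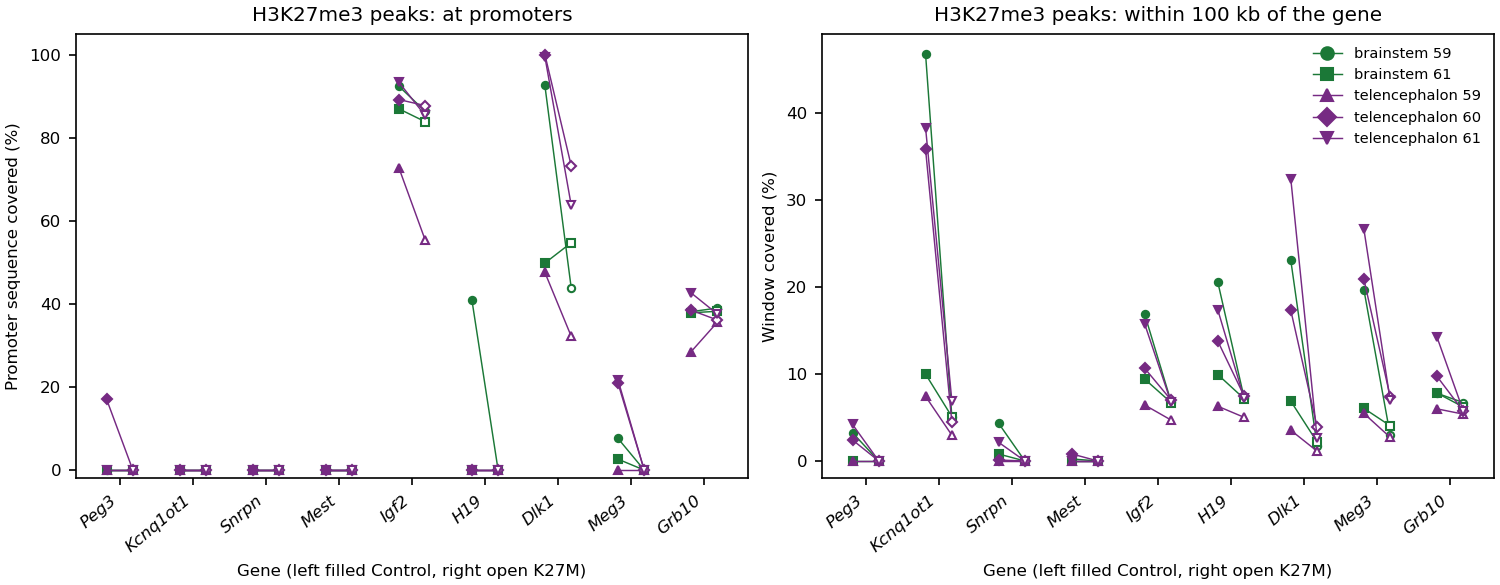
Percent covered by H3K27me3 peaks at the promoters (left) and in the gene with 100 kb on either side (right) for the 9 genes, with filled points for Control and open points for K27M cultures, joined by culture. The Grb10 promoters kept about the same coverage in both genotypes, while coverage around Kcnq1ot1 was up to 46.8% in Control and between 2.97% and 6.92% in K27M cultures.

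Mean promoter H3K4me3 coverage moved little. It was lower in K27M at 6 of the 9 genes (Kcnq1ot1, Mest, Igf2, H19, Dlk1, Grb10) and higher at 3 (Peg3, Snrpn, Meg3), with a median of -1.56 points, against a median of 0.69 points over 20007 genes, of which 63.8% were higher. The median of the 9 genes was 0.27 points without telencephalon pair 60. The difference at Igf2 was -4.82 ± 5.76 points (SD over 5 pairs), lower in 4 pairs and 0 in the fifth, where neither culture had a peak, with an exact p of 0.125 (adjusted 0.869). At the other 8 genes the mean differences lay between -2.75 and 3.17 points and the exact permutation p between 0.25 and 0.938. Single pairs differed by more and in both directions. H19 differed by -17.1 points in telencephalon pair 60 and by 10.6 in pair 61. Dlk1 differed by -11.4 in pair 60 and by 5.77 in pair 59, and Kcnq1ot1 by -15.2 in pair 61 and by 5.03 in brainstem pair 59.

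Imprinted genes lie in clusters, and H3K27me3 was therefore also measured over each gene with 100 kb on either side. The mean was lower in K27M cultures at 9 of 9 genes, as at 98.8% of all genes with a peak in that window, with a median of -5.40 points against -1.77 over all genes. The difference was largest around Kcnq1ot1, the antisense RNA of the cluster that holds Cdkn1c, Phlda2, Kcnq1 and Ascl2. There, coverage was 46.8% and 9.98% in brainstem Control cultures 59 and 61 and 7.42%, 35.8% and 38.3% in telencephalon Control cultures 59, 60 and 61. In the K27M cultures it was 5.09% and 5.10% in brainstem and 2.97%, 4.46% and 6.92% in telencephalon. Every K27M value around Kcnq1ot1 lay below every Control value, and 3 Control cultures stood far above the other 2. The share of all genes with values apart in this way was not counted.

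The mean around Kcnq1ot1 was 27.7% in Control and 4.91% in K27M cultures (exact p 0.0625, adjusted 0.159). The Control libraries with little H3K27me3 around Kcnq1ot1, brainstem 61 and telencephalon 59, were also the Control libraries with the fewest H3K27me3 peaks, and the part of this in the values was not tested. Around Dlk1 the means were 16.6% and 2.33%, around Meg3 15.8% and 4.83%, around H19 13.6% and 6.83%, and around Igf2 11.8% and 6.41%, each in Control and K27M in this order. The Dlk1 and Meg3 windows overlap, as do those of Igf2 and H19. Grb10 went from 9.12% to 5.96%. Each of these 5 genes was lower in 5 of 5 pairs with an exact p of 0.0625. That smallest p was reached at 17469 of the 44486 genes with a peak in that window. Peg3, Snrpn and Mest had 1.97%, 1.48% and 0.21% in Control and 0% in K27M cultures, so these windows held almost no H3K27me3.

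At Igf2, Dlk1 and Grb10, where H3K27me3 remained, its fold enrichment over input was not lower in K27M cultures. The highest H3K27me3 enrichment at Igf2 was 9.30- and 8.29-fold in brainstem Control, 20.5- and 25.1-fold in brainstem K27M, 3.04-, 15.2- and 9.17-fold in telencephalon Control, and 7.20-, 18.6- and 20.5-fold in telencephalon K27M cultures. At Dlk1 it was 2.28- to 6.42-fold in Control and 2.83- to 8.49-fold in K27M cultures. At Grb10 it was 3.97- to 9.86-fold in Control and 5.47- to 15.1-fold in K27M cultures. Each of the 3 genes was higher in K27M in 5 of 5 pairs, as were 46.4% of the 1820 genes with a peak in all 10 cultures.

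These enrichments compare a library with its own input and are not scaled by the fly chromatin added as a spike-in, so they do not give the amount of H3K27me3 per cell. Ranked among the genes with a promoter H3K27me3 peak in its own library, the strongest peak at these genes stood lower in K27M in most pairs. This percentile at Grb10 was 86.1 to 95.6 in Control and 73.2 to 83.1 in K27M cultures, lower in 5 of 5 pairs. It was lower in 4 of 5 pairs at both Igf2 and Dlk1, where the ranges of the genotypes overlapped. At Dlk1 they were 25.8 to 85.3 in Control and 39.9 to 73.6 in K27M cultures. Of other imprinted genes with a peak in all 10 cultures, Phlda2, Kcnq1, Ascl2, Dio3, Klf14, Calcr, Slc22a3, Sfmbt2 and Zdbf2 were also lower in 5 of 5 pairs. Gnas and Kcnk9 were lower in 4, Rasgrf1 in 3 and Cdkn1c in 2 pairs. The share of all genes with a lower rank was not counted. The K27M libraries held fewer peaks in every pair, and the part of this in the ranks was not tested. Genes that drop out at the weak end of a ranking lower the percentile of those that remain. A lower percentile therefore does not by itself give less H3K27me3 at a gene.

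The wider list of 41 other autosomal imprinted genes gave a background for the 9. By consensus, both marks were found at 11 of the 41 in brainstem Control, 10 in brainstem K27M, 17 in telencephalon Control and 12 in telencephalon K27M cultures. The 11 genes with both marks in the Control cultures of both regions were Cdkn1c, Phlda2, Kcnq1, Ascl2, Magel2, Mkrn3, Calcr, Slc22a3, Gnas, Sfmbt2 and Rasgrf1. The first 4 of these lie in the Kcnq1ot1 cluster and include Cdkn1c, an inhibitor of the cell cycle, and Phlda2, a growth-limiting gene of the placenta. Another 6 had both marks in telencephalon Control cultures only, namely Dio3, Klf14, Plagl1, Kcnk9, Slc38a4 and Zdbf2. The consensus needed 2 of 2 cultures in brainstem and 2 of 3 in telencephalon, so the regions cannot be compared by these counts. Klf14, for example, had peaks of both marks in both brainstem Control cultures without entering the H3K4me3 consensus.

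Magel2, a paternally expressed gene of the cluster that also holds Snrpn, Ndn and Mkrn3 and an adaptor of ubiquitin ligases, differed from the 9 genes. It was the only gene of the wider list with promoter H3K27me3 in all 5 Control cultures and in no K27M culture. Among the 2964 genes with such a peak in all 5 Control cultures, 10.4% had none in any K27M culture. H3K27me3 covered 98.7% and 100% of the Magel2 promoter in brainstem Control cultures and 88.4%, 100% and 100% in telencephalon Control cultures 59, 60 and 61, and 0% in all 5 K27M cultures. The groups did not overlap, and the Control peaks had only 2.97- to 4.97-fold enrichment. The difference was -97.4 ± 5.06 points (SD over 5 pairs), with an exact p of 0.0625 (adjusted 0.497).

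H3K4me3 at Magel2 moved the other way. It covered 52.5% and 25.7% of the promoter in brainstem Control cultures 59 and 61 and 64.1% and 55.4% in the K27M cultures. In telencephalon it covered 14.1%, 49.2% and 38.1% in Control cultures 59, 60 and 61 and 63.1%, 71.5% and 70.3% in the K27M cultures. Every K27M value was above every Control value, and the mean difference was 29.0 ± 13.7 points, higher in 5 of 5 pairs (exact p 0.0625, adjusted 0.869). That smallest p was reached at 1176 of the 20007 genes with an H3K4me3 promoter peak. The share of all genes with every K27M value above every Control value was not counted. Within 100 kb of Magel2, H3K27me3 coverage was 36.1% in Control and 8.28% in K27M cultures.

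**Figure D5:**
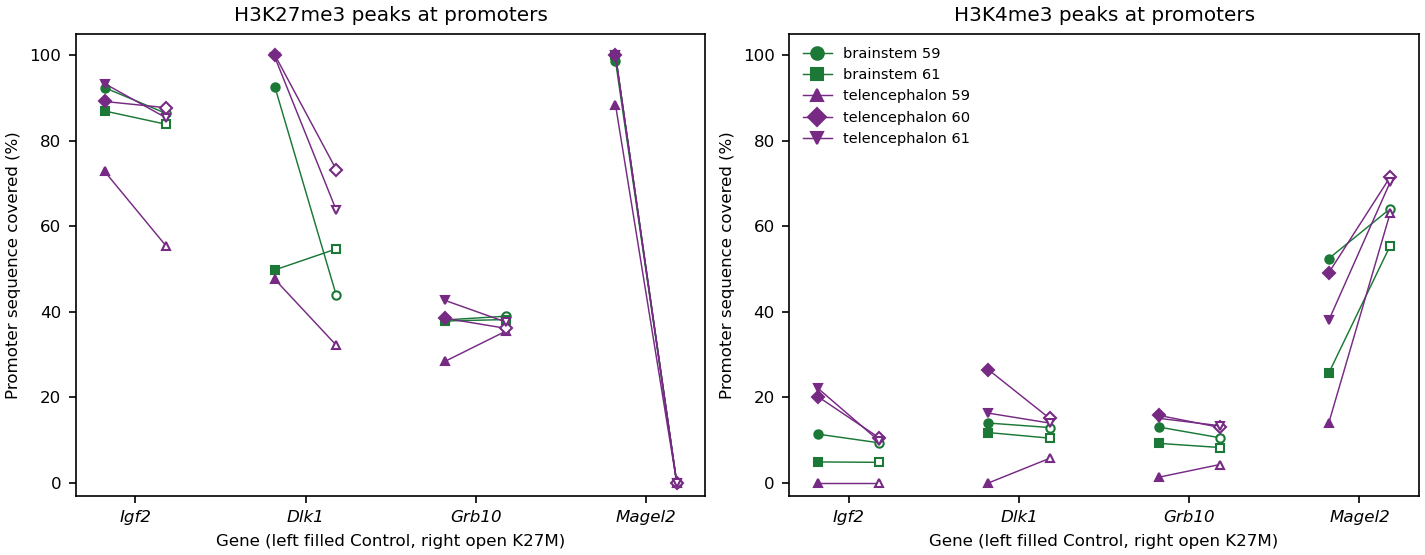
Percent of the promoters of Igf2, Dlk1, Grb10 and Magel2 covered by H3K4me3 peaks and H3K27me3 peaks in Control and K27M cultures, 1 line per matched pair of cultures. At Magel2 H3K27me3 coverage went from 88.4% or more to 0% in every pair while H3K4me3 coverage was higher, whereas the other 3 genes kept H3K27me3.

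By region, promoter H3K27me3 was present in every Control and no K27M brainstem culture at Magel2, Meg3 and Ins2, the last with 7.61% and 5.67% of its promoters covered, and in telencephalon at Magel2 alone. Brainstem had only 2 cultures per genotype, and the share of all genes with this pattern by region was not counted. Meg3 and Ins2 had the mark in 4 of 5 Control cultures. Among genes with it in 1 to 4 of 5, 81.1% had none in any K27M culture. Over the 41 genes, H3K27me3 coverage was lower in K27M at 20 and higher at 4 of the 27 with a peak, against 93.8% lower among all genes with a peak. H3K4me3 coverage was lower at 10 and higher at 24 of the 34 with a peak, against 63.8% higher among all genes with a peak. Plagl1, a zinc finger gene that regulates other imprinted genes, had 22.6% ± 13.8 of its promoters covered by H3K27me3 in Control and 1.66% ± 2.28 in K27M cultures, lower in 5 of 5 pairs (exact p 0.0625, adjusted 0.497). Zdbf2 kept H3K27me3, with 74.9% in Control and 79.4% in K27M cultures, and had H3K4me3 in 2 of 5 Control and 5 of 5 K27M cultures.

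Genes whose coverage by both marks was most like that of each imprinted gene were sought among autosomal protein-coding genes on another chromosome or over 1 Mb away, by the mean absolute difference in percent covered over the 20 libraries. For Igf2 the nearest were Ppm1n, at 3.02 points, and Col8a2, at 3.24 points, and for Grb10 Wdr86, at 3.54 points, and Mecom, at 3.67 points. For Dlk1 they were Prdm16, at 5.69 points, and Galr3, at 6.00 points, both with H3K4me3 and H3K27me3 in 10 of 10 cultures. Meg3 was nearest to Tmem108, at 1.47 points, and Tspan17, at 1.58 points, and Peg3 to Erbin, at 1.28 points, and Peak1, at 1.502 points. H19 was nearest to Prr23a1, at 2.91 points, and Myh7b, at 3.39 points. Prr23a1 had H3K4me3 in only 2 of 10 cultures and Myh7b in 8 of 10, whereas H19 had it in every culture. None of these 12 is among the imprinted genes listed here.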

How the data were processed

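H3K4me3 and H3K27me3 ChIP-seq libraries of 10 cultures each were used as the peak lists that the authors deposited; the input libraries were not analysed. Per the authors' methods and processing notes, alignment to mm10 used BWA 0.7.17-r1188, blacklisted regions were dropped, and MACS2 2.2.7.1 called the peaks of every library relative to the matching input, narrow for H3K4me3 and broad for H3K27me3, without pooling replicates and without spike-in scaling. The deposited columns used were peak positions, the fold enrichment over input, which is a ratio, and −log10 p-value and −log10 q-value per peak. The score that the authors' peak caller deposited for each peak and the summit offset were not used. Read depth is not in peak lists, so the numbers of peaks and megabases covered are given in its place, and values limited by depth cannot be told apart from weak marks.

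Peaks were joined to GENCODE M21 promoters by at least 1 bp, and coverage was the percent of a gene's merged promoters under peaks (Python 3.11.15, numpy 2.4.6, scipy 1.17.1, pandas 2.3.3). Consensus peaks followed the MSPC rule over 2 or more cultures. H3K4me3 peaks had a stringent p of 1e-10 and a weak p of 1e-06, and H3K27me3 peaks had 1e-08 and 0.0001 in these roles. K27M was compared with Control in 5 matched pairs by an exact sign-flip permutation test over 32 arrangements, with Benjamini-Hochberg adjustment over all genes with a peak; the statistics were tested on simulated data. The pairing comes from the study's matched cultures of 1 region and number, and deviations of peak presence in same-numbered cultures correlated at 0.20 to 0.56 for H3K4me3 in telencephalon, -0.04 to 0.30 for H3K27me3 in telencephalon, and 0.0072 and -0.0090 in brainstem. Telencephalon and brainstem were not tested against each other, since 2 against 3 cultures cannot give an exact permutation p below 0.1. The genes, the wider list and the tests were chosen with earlier results of these data known. All 9 genes are named; of the wider list, those with both marks by consensus in Control cultures, those with H3K27me3 in every Control and no K27M culture of a region, and, chosen after their values were seen, single examples. Sequences come from the GRCm38 genome and the RefSeq promoter table of GRCm38.p6.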

Additional observations from a re-analysis of the deposited data

Results flagged for a closer look

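In each of 24 sets of 5 pair differences, the most extreme pair was set against the others by Dixon's test with a critical value of 0.71. For normally distributed values, chance alone passes this in about 1 set in 20. The test was passed in 2 sets. At Peg3, promoter H3K27me3 coverage differed by -17.0 points in telencephalon pair 60 and by 0 in the other 4 pairs. At H19, it differed by -41.0 points in brainstem pair 59 and by 0 in the other 4 pairs. In both cases peaks were called in a single Control culture, 2 peaks of 2.36- and 2.26-fold enrichment at Peg3 and 1 of 2.37-fold at H19. With 4 pairs at 0, a difference of any size in the remaining pair passes the test. The rate for normal values therefore does not apply to these 2 sets.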

How the results depend on the processing

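The 3 telencephalon Control calls of both marks became 1 when each Control culture had to hold a peak and 1 to 3 with a culture left out, and the brainstem calls 2 to 3. The median promoter H3K27me3 difference of the 9 genes, -3.41 points, was 0 with peaks of −log10 q of at least 3, with peaks of at least 3-fold enrichment, and with each gene's best-covered promoter alone. It was -1.81 with promoters of 1000 bp upstream, -2.58 with 5000 bp, and -4.26 to 0 with a pair left out. Genes with less H3K27me3 in K27M numbered 3 under each peak threshold and 8 with 5000 bp upstream, instead of 5. The median H3K4me3 difference of -1.56 turned to 0.27 both with the best-covered promoter and without telencephalon pair 60. The median difference within 100 kb, -5.40, was -1.06 with peaks of at least 3-fold enrichment and -4.25 to -6.32 with a pair left out. Without the replicate block, that is with genotype labels permuted within region (smallest p 0.0167), these medians stayed at -3.41, -1.56 and -5.40, and no gene passed an adjusted 0.05 for promoter H3K4me3, promoter H3K27me3 or the 100 kb window; at an unadjusted p under 0.05 there were 526, 959 and 12784 genes. Of 279 values of single genes under alternatives, 6 moved by more than the spread between pairs. Coverage depends on how many peaks a library yields, which limits every comparison of Control with K27M.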
